A study of Mus musculus with 12 samples.

Results

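The proteasome genes of the mouse were followed in ventral hippocampal CA1 after synaptic tetanization with or without stimulation of the amygdala. Members were taken by symbol, as names that begin with Psma, Psmb, Psmc, Psmd, Psme or Psmg and a digit. Of 53 such names in the count table, 4 were pseudogenes, and the protein-coding genes Psma8 and Psmb11 had mean raw counts of 7.33 and 2.75, below the minimum of 10. Psmb9, at a mean of 21.8 reads, was the kept gene nearest to that minimum. This left 47 genes of 55471 gene IDs in the table, and all 47 passed the filter on low counts that kept 19492 genes for testing. Psmc3ip, which carries the name of a partner of Psmc3 and is known for its part in meiotic recombination, is not a proteasome gene and was left out of the class summaries. The other 46 comprised 14 subunits of the constitutive 20S core, 17 subunits of the 19S cap, 3 catalytic subunits of the immunoproteasome, 5 genes of the alternative caps PA28 and PA200, and 7 assembly chaperones.

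The 12 libraries were made from acute brain slices of wild-type male C57BL/6J mice aged 5 to 7 weeks, in 4 groups of 3. Each library held the vCA1 tissue of 6 pooled slices, dissected from slices frozen 30 min after stimulation and sequenced as directional poly(A) RNA. Control slices had basal stimulation only. STET slices had strong tetanization, given as 3 trains of 100 pulses at 100 Hz, a protocol that induces late long-term potentiation (a lasting increase in synaptic strength). STET_S100 and STET_S200 slices had the same tetanization joined by stimulation of the basolateral amygdala, at 100 Hz for STET_S100. For STET_S200 the labels give 200 Hz and then a train at 100 Hz in brackets, so the rate is stated in conflicting ways. A mouse gave 4 slices, 1 for each group, but replicate numbers are not said to mark the same mice. The p-values therefore measure the spread between these pooled samples. Total counts ran from 36.3 to 52.8 M reads per library, and reads are not independent molecules. Summed levels of choroid plexus markers ran from 85.4 to 4162 CPM (counts per M reads of the scaled library total) and were 85.4 to 160 in STET_S200 and 115 in STET_S100 3. Fabp4, a fatty acid carrier of fat and vessels, was above 1 CPM in 5 libraries (Control 3, STET 3, STET_S100 1, STET_S200 2 and STET_S200 3). Markers of CA1 pyramidal neurons were found in every library, with sums of 5463 to 6205 CPM.

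The proteasome is the main protease for proteins tagged with ubiquitin. Its 20S core is a barrel of alpha and beta rings with 3 proteolytic activities, carried by the beta subunits of Psmb6, Psmb7 and Psmb5, and its 19S cap binds ubiquitin, unfolds the substrate and feeds it into the barrel. In immune cells, and in other cells after interferon, the subunits of Psmb9, Psmb10 and Psmb8 take the place of those 3 subunits, and the PA28 cap of Psme1 and Psme2 can take the place of the 19S cap. Protein degradation by the proteasome is known to act in lasting synaptic plasticity in the hippocampus.

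The sequences before the transcription start are shown for a pair of exchanged subunits with the same activity, Psmb5 and its immune counterpart Psmb8, and for the pair Psmb6 and Psmb9, because the results below turn on the level of the immune subunits against these constitutive partners. Each is the stretch of 250 bases upstream of the RefSeq start on GRCm38.p6, read 5′ to 3′ on the strand of the gene. Capitals mark a match to a searched motif: TGACNNNGC in Psmb5 and Psmb6, TTCNNNGAA in Psmb8, and ATTGG, the reverse complement of CCAAT, in Psmb9.
Psmb5, chr14:54617996-54618245, minus strand: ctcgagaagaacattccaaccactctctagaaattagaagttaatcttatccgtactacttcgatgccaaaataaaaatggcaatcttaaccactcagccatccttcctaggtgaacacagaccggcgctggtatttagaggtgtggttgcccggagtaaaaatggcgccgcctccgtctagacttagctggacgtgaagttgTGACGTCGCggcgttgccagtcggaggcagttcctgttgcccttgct
Psmb8, chr17:34197945-34198194, plus strand: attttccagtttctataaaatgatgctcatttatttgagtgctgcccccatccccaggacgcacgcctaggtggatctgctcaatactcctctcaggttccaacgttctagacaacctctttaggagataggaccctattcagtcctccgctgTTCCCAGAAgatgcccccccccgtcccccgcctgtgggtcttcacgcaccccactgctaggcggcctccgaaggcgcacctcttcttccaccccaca
Psmb6, chr11:70525107-70525356, plus strand: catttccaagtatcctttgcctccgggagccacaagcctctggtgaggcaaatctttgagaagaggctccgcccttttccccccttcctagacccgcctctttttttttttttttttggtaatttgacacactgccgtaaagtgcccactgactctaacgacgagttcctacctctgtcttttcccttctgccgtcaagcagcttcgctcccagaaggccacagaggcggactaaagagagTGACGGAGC
Psmb9, chr17:34187331-34187580, minus strand: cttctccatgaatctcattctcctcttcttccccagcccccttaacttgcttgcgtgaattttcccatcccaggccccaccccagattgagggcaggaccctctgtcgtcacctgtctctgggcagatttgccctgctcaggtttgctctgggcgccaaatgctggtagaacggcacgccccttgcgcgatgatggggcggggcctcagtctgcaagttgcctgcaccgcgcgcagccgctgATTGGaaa

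TGACNNNGC is the core of the antioxidant response element, which is known to bind the proteasome regulator encoded by Nfe2l1, and TTCNNNGAA is the gamma-activated site of interferon-responsive genes. The match began at position -47 from the start in Psmb5, at -9 in Psmb6, at -97 in Psmb8 and at -8 in Psmb9. RefSeq windows were found for 39 of the 46 genes (42 windows, as some genes have several starts), and both strands were searched. TGACNNNGC was found in 5 windows of 42 (11.9%) and in 10.2% of all 32851 windows of the same length. The interferon-stimulated response element, GAAA followed after any 2 bases by GAAA, was found in 3 windows (7.14% against 2.98% of all), TTCNNNGAA in 2 (4.76% against 7.02%) and CCAAT in 13 (31% against 33.8%). The windows of the 3 immunoproteasome genes held no TGACNNNGC and no interferon-stimulated response element. A match describes the letters only, and each motif was searched by itself, so that matches of different motifs may overlap.

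Levels between genes are given as CPM per kb of the principal transcript, averaged over the 12 libraries. The 14 core genes had a median of 59.1 and ran from 27.1 for Psma2, of the alpha ring that gates the barrel, to 86.8 for Psmb7, the trypsin-like catalytic subunit, a 3.2-fold range. The caspase-like catalytic subunit Psmb6 stood at 86.6, and the structural beta subunit Psmb4 at 84.4. Psmb5, the chymotrypsin-like catalytic subunit, stood at 31.3. This order depends on the length used. With the length of all exons, the core ran from 20.5 for Psma1 to 52.1 for Psma6 with a median of 29.6, and Psmb5 at 31.3 was above Psmb7 at 29.4. Of the 75-base stretches of Psmb5, 40% also occur in the predicted gene Gm3375 or in the overlapping microRNA gene Mir686. The share found in other genes was 39.8% for Psma5, 33.1% for Psmb3 and 21.3% for Psma3, so the counts of these 4 genes are uncertain. The 17 genes of the 19S cap had a median of 48.8 and ran from 25.6 for Psmd11, a lid subunit, to 74.6 for Psmc1, an ATPase of the base, a 2.91-fold range. With the length of all exons, the cap had a median of 26 and ran from 11.4 for Psmd11 to 70.1 for Psmc5. Levels of core and cap genes overlapped with either length.

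The immunoproteasome subunits were far below their constitutive counterparts. Psmb10 stood at 13.3 CPM per kb, Psmb8 at 0.971 and Psmb9 at 0.362. Per length, Psmb8 was 3.13% ± 0.7 of Psmb5 (SD, n = 12 libraries), Psmb9 was 0.417% ± 0.118 of Psmb6, and Psmb10 was 15.4% ± 0.758 of Psmb7. The constitutive member of each pair was thus 31.9-fold, 240-fold and 6.5-fold higher. Raw counts per library were 39 to 100 reads for Psmb8 and 8 to 36 for Psmb9, but 612 to 924 for Psmb10, so the values of Psmb8 and Psmb9 rest on few reads. With the length of all exons of a gene in place of the principal transcript, the ratios were 1.51%, 0.361% and 34.9%, in the same order of pairs. Counting of overlapping genes on opposite strands is not described in the sources used here, and 14.7% of the exon length of Psmb8, 5.8% of that of Psmb9 (with Tap1) and 11.8% of that of Psmb7 (with Nek6) lie opposite another gene.

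Among the alternative caps, Psme3, the nuclear PA28 gamma, stood highest at 36.8 CPM per kb and Psme2b lowest at 0.824. Psme1 and Psme2, the PA28 alpha and beta subunits that form a ring together, stood at 27.0 and 16.8, and Psme4, the PA200 cap, at 10.9. Psme2 and Psme2b are closely similar genes that share 51.7% and 60.2% of their 75-base stretches, so reads could be split between them. The assembly chaperones had a median of 8.99, from 1.95 for Psmg3 to 11.4 for Psmd5. The chaperones, which act on each particle only while it is built, were thus all below the lowest core gene.

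**Figure D1:**
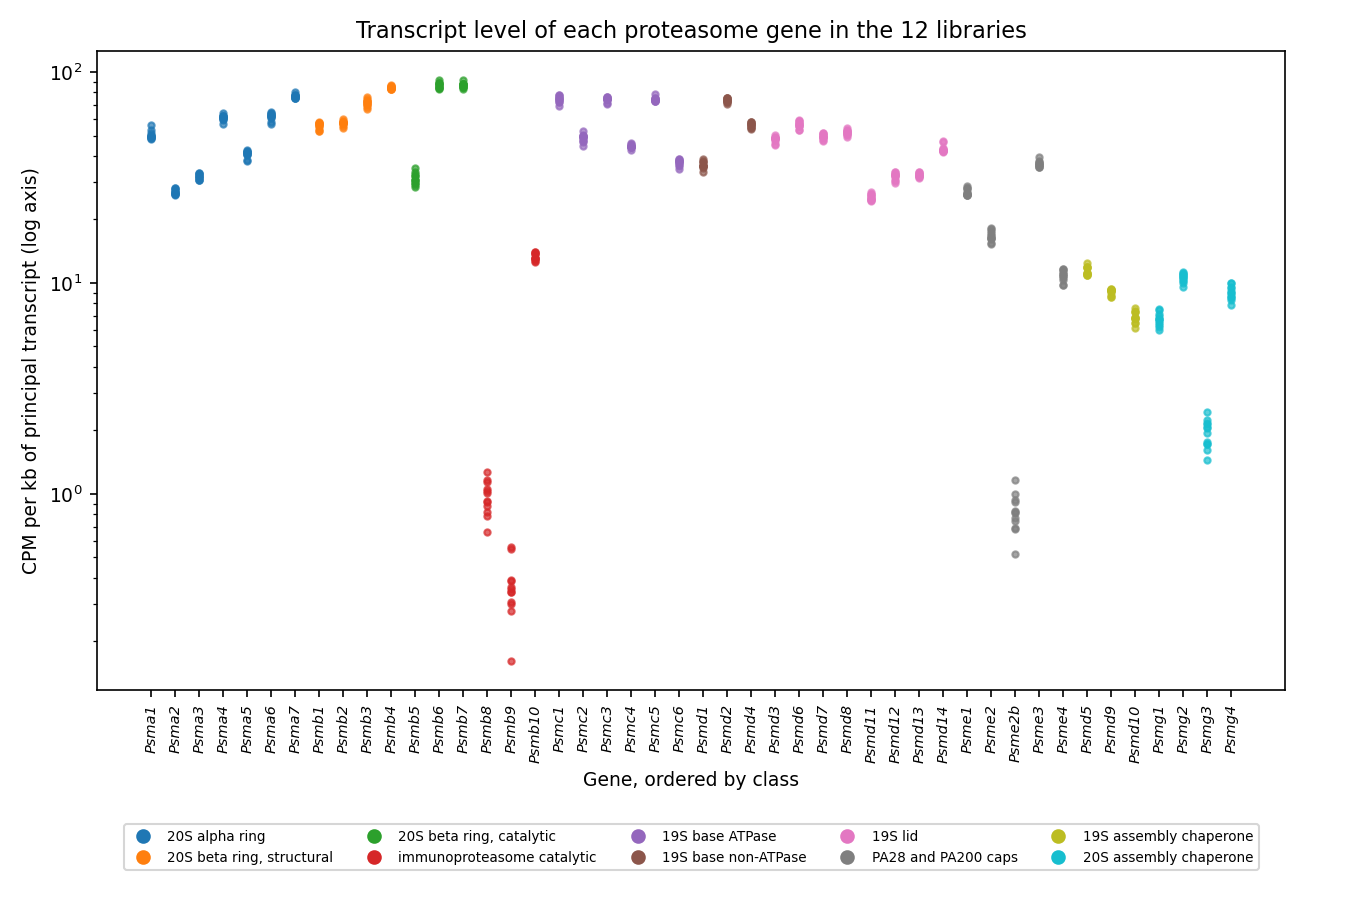
Level of each of the 46 proteasome genes, in CPM per kb of principal transcript on a log axis, with 1 point per library (12 points per gene) and colours for the classes. Core and 19S genes lie between 25.6 and 86.8 as means, while Psmb8, Psmb9 and Psme2b lie near or below 1.

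Library-to-library variation of core and cap genes was small. The coefficient of variation over the 12 libraries had a median of 2.92% in the core and 2.92% in the 19S cap, against 8.62% over all genes tested. It was lowest for Psmb4, at 1.57%, and in the core highest for Psmb5, at 6.19%. It was 5.42% in the median for PA28 and PA200 genes, 6.25% for assembly chaperones and 18% for the immunoproteasome, where Psmb10 had 3.64% and Psmb9 had 30.1%. The classes with the lower levels thus had the larger variation, and counting error is larger at low counts.

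Summed over the core genes, Control libraries held 971, 952 and 992 CPM, STET libraries 1002, 987 and 991, STET_S100 libraries 983, 962 and 993, and STET_S200 libraries 1005, 996 and 1006. The highest library was 1.06-fold above the lowest. All 3 STET_S200 sums lay above all 3 Control sums, by the narrow gap between 992 and 996 CPM, and STET 1 at 1002 lay within the STET_S200 range. The sum over the 19S cap was 1568 ± 32.9 CPM (SD, n = 3) in Control and 1569 ± 6.33 in STET, against 1587 ± 27.8 in STET_S100 and 1607 ± 9.61 in STET_S200, with libraries of Control and STET_S200 overlapping. The immunoproteasome sum, made up mostly of Psmb10, was 19.5 ± 0.343 CPM in Control and 20.1 ± 0.179 in STET, against 20.1 ± 0.256 in STET_S100 and 18.5 ± 0.643 in STET_S200. In bulk tissue, fewer cells of a type and less RNA per cell cannot be told apart.

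**Figure D2:**
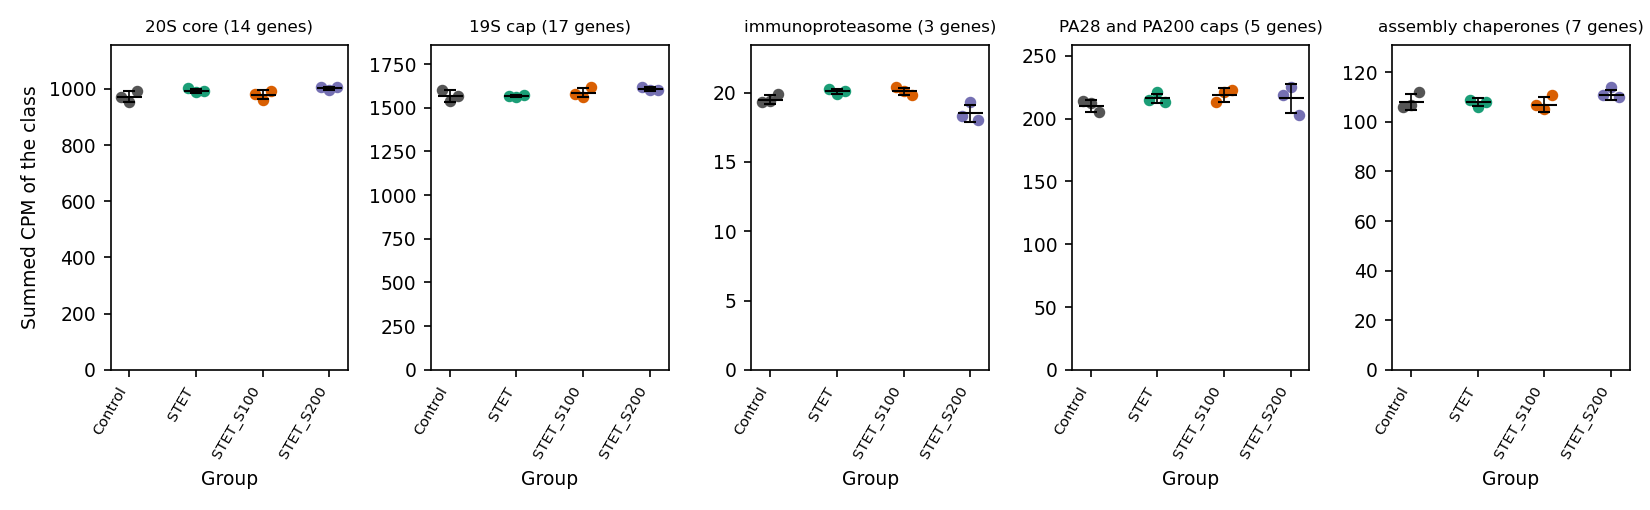
Summed CPM of each class in each library (points), with the mean and SD of the 3 libraries of a group (bars), on axes that start at 0. Sums of the core range from 952 to 1006 CPM, and the immunoproteasome sum is lowest in STET_S200 at 18.5 ± 0.643.

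No proteasome gene passed the test in any of 7 comparisons. Each stimulated group was set against Control, the stimulated groups were set against each other, and their joint mean was set against Control. At an adjusted p under 0.05 in the quasi-likelihood test of edgeR, with Benjamini-Hochberg adjustment over 19492 genes, 0 of 46 members and 0 (0%) of all genes were called in each. DESeq2 and limma-voom also called 0 members in each comparison, while over all genes DESeq2 called 1 to 16 and limma-voom 0. At an unadjusted p under 0.05, members numbered 0 for STET against Control, beside 3.5% of all genes, 1 for STET_S100 against Control, beside 5.16%, and 2 for STET_S200 against Control, beside 5.92%. For the other comparisons they numbered 0 for STET_S100 against STET (3.16% of all genes), 3 for STET_S200 against STET (4.56%), 3 for STET_S200 against STET_S100 (5.2%), and 0 for the joint mean against Control (5.47%). These counts of 46 are near the share of all genes.

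The intervals show how large a change these data leave possible. For all 14 core and all 17 cap genes, the 95% interval of the fold change lay within 1.2-fold in either direction in all 7 comparisons. The outermost bounds in the core were a log2 value of -0.19 for Psmb5 in STET_S100 against Control and 0.23 for Psma1 in STET_S200 against Control, which are 0.879-fold and 1.17-fold. In the 19S cap they were -0.13 for Psmd6 in STET_S200 against STET_S100 and 0.18 for Psmd1 in STET_S200 against STET. Of all 46 members, 38 to 41 (82.6% to 89.1%) had intervals within 1.2-fold, by comparison, while the share of all genes tested was 44.5% to 51.9%. Intervals are wider at low counts, and these shares were not matched for counts. Psmb9 and Psme2b reached beyond 1.5-fold in every comparison, and Psmb8 did so in the 3 comparisons of STET_S200 with another group. In those comparisons a change of that size in these 3 genes lies within the interval, while in the other 4 comparisons the interval of Psmb8 lay within 1.5-fold.

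**Figure D3:**
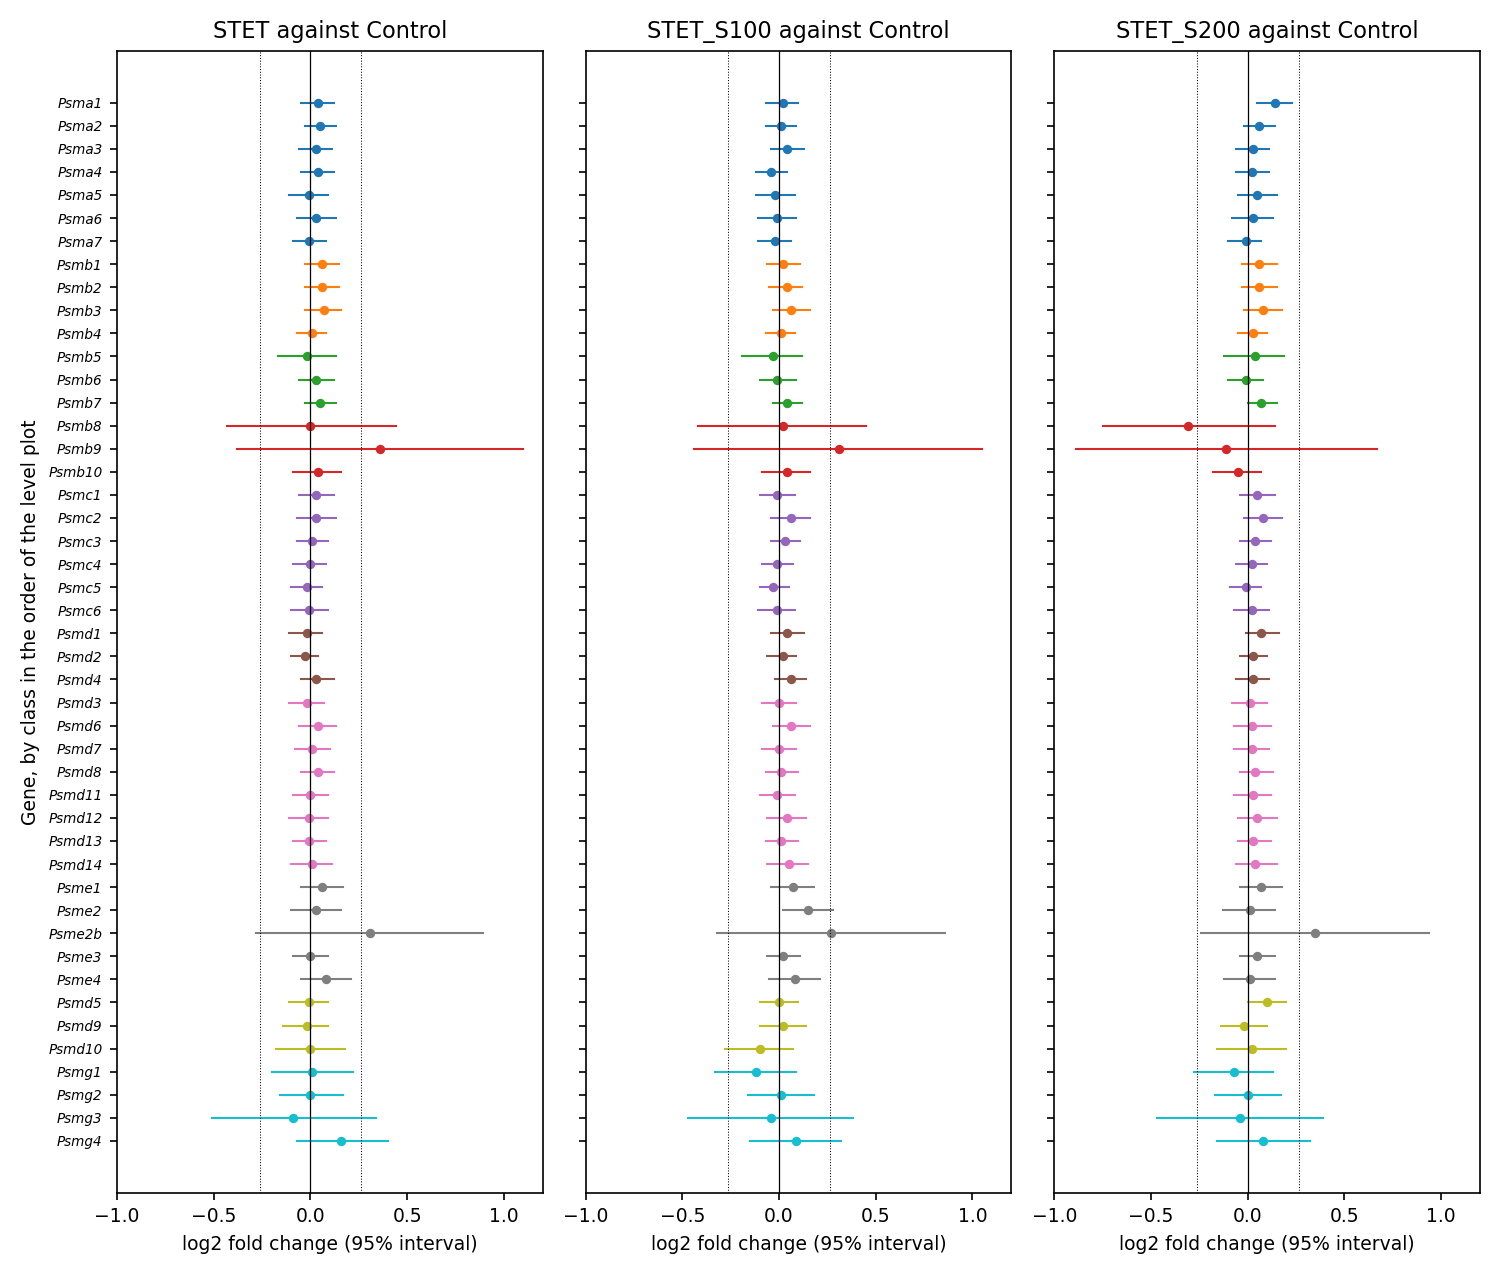
Log2 fold change (point) and 95% interval (line) of each of the 46 genes for STET, STET_S100 and STET_S200 against Control, from edgeR, with dotted lines at 1.2-fold. The 3 panels share the Control libraries. Core and 19S genes stay inside the dotted lines, and Psmb8, Psmb9, Psme2b and Psmg3 have the widest intervals.

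Tetanization alone left the core and 19S genes close to Control, while Psmb8, Psmb9 and Psme2b had wide intervals. Their log2 fold changes were 0.00 (95% interval -0.43 to 0.44), 0.36 (-0.38 to 1.10) and 0.31 (-0.28 to 0.89). In STET against Control the median log2 fold change was 0.03 over the core (11 genes higher, 3 lower), 0.00 over the 19S cap (9 higher, 8 lower), 0.04 over the immunoproteasome and 0.06 over PA28 and PA200 genes. Of all 46 members, 67.4% were higher, beside 49.9% of all genes. The members with the smallest p on the higher side were Psmg4 (0.16 ± 0.11, SE), a chaperone of 20S assembly, Psmb2 (0.06), Psmb1 (0.06), Psmb3 (0.07) and Psmb7 (0.05), and on the lower side Psmd2 (-0.03), Psmc5 (-0.02), Psmd1 (-0.02), Psmd3 (-0.02) and Psmg3 (-0.09). None passed, and all had an adjusted p of 1 in edgeR. For 3 members (Psmb7, Psme1 and Psmg4, 6.52%) every STET library was above every Control library, beside 4.69% of all genes, and for 0 members was every one below, beside 4.2%.

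Psme2, the PA28 beta subunit, was the member with the smallest p in STET_S100 against Control. Its level was 15.7, 16.1 and 14.9 CPM in Control, 15.8, 15.8 and 16.2 in STET, 17.0, 17.3 and 17.6 in STET_S100, with 15.6, 16.6 and 14.7 in STET_S200. All 3 STET_S100 libraries thus lay above the other 9, and its log2 fold change against Control of 0.15 ± 0.06 did not pass the adjusted test (adjusted p = 0.902, edgeR). The log2 fold change was 0.07 ± 0.05 for its partner Psme1 and 0.02 ± 0.04 for Psme3. Class medians were 0.01 over the core (8 higher, 6 lower), 0.01 over the 19S cap (11 higher, 6 lower), 0.04 over the immunoproteasome and 0.08 over PA28 and PA200 genes, and 65.2% of members were higher beside 50.8% of all genes. Other members named by their p were higher (Psmd4 0.06, Psmd6 0.06, Psmb3 0.06) or lower (Psmd10 -0.10, Psmg1 -0.12, Psma4 -0.04, Psmc5 -0.03, Psma7 -0.02) by values that did not pass. STET_S100 and Control libraries did not overlap for 4 members, all higher (Psmb7, Psmd6, Psme1 and Psme2, 8.7%), beside 5.19% of all genes above and 4.93% below.

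In STET_S200 against Control, Psma1, a subunit of the alpha ring, had the smallest p of any member. It stood at 59.5, 57.6 and 58.2 CPM in Control, 60.7, 59.4 and 59.8 in STET, 59.3, 58.2 and 59.9 in STET_S100, and 61.8, 64.0 and 67.4 in STET_S200. The 3 STET_S200 libraries were the 3 highest of the 12, and the log2 fold change of 0.14 ± 0.04 did not pass (adjusted p = 0.786, edgeR). Psmd5, a chaperone of the 19S base, stood at 48.3, 47.8 and 52.2 CPM in Control and 52.3, 54.6 and 52.5 in STET_S200. Its groups were separated by the narrow gap between 52.2 and 52.3, and the log2 fold change was 0.10 ± 0.05 (adjusted p = 0.828, edgeR). Psmd1, a large subunit of the 19S base, stood at 113, 109 and 111 CPM in Control and 118, 116 and 117 in STET_S200, a log2 fold change of 0.07 ± 0.04 that did not pass.

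Medians in STET_S200 against Control were 0.04 over the core (12 higher, 2 lower), 0.03 over the 19S cap (16 higher, 1 lower), -0.11 over the immunoproteasome (3 of 3 lower) and 0.05 over PA28 and PA200 genes (5 of 5 higher). Of all members 36 (78.3%) were higher, beside 50.6% of all genes, and the median over all members was 0.03. Lower values came with the smallest p for Psmb8 (-0.31 ± 0.21), Psmb10 (-0.05), Psmg1 (-0.07), Psma7 (-0.01) and Psmd9 (-0.02), and none passed. Every STET_S200 library was above every Control library for 6 members (Psma1, Psma5, Psmb4, Psmb7, Psmd1 and Psmd5, 13%), beside 5.73% of all genes, and below them for 0, beside 5.28%. All 9 choroid plexus markers were lower in STET_S200 than in Control, with a median of -3.99 and sums of 85.4 to 160 against 380 to 1928 CPM. With their mean log2 CPM in each library (the choroid score) as a covariate, 27 of 46 members were higher. The core median was then 0.02, the 19S median 0.01, the immunoproteasome median -0.49, the difference in Psmd5 0.04 and that in Psmd1 0.01. The choroid score was -0.823 to 0.895 in STET_S200 and 2.59 to 5.02 in Control. Score and group can thus hardly be told apart, and the adjusted values are not a clean correction. Over all settings of the fit, the one with the score among them, Psma1 ran from 0.08 to 0.17 in this comparison. The 0.08 came from the libraries with Fabp4 at or below 1 CPM, which keep only STET_S200 1 of STET_S200.

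Psmb7 was the member for which all 9 stimulated libraries lay above all 3 Control libraries. The share of all genes with such a separation was not counted, so it cannot be set beside a background. Control libraries held 98.8, 96.6 and 98.0 CPM, STET 102, 99.4 and 102, STET_S100 102, 98.9 and 102, and STET_S200 106, 100 and 102. The gap between the highest Control and the lowest stimulated library was 98.8 to 98.9 CPM, and the log2 difference of the joint mean from Control was 0.06 ± 0.03 (adjusted p = 0.936, edgeR). In the same comparison the medians were 0.02 in the core (12 higher, 2 lower), 0.02 in the 19S cap (14 higher, 3 lower), 0.01 in the immunoproteasome and 0.06 in the PA28 and PA200 genes, and 78.3% of members were higher beside 50% of all genes. Psma1 (0.06), Psmb3 (0.07), Psmb2 (0.05) and Psme1 (0.07) were the other higher members by p, and Psmg1 (-0.06) and Psmb8 (-0.10) were among the lower ones, and none passed. The count of higher members, 36 here, became 38 without Control 1, 30 without Control 2 and 39 without Control 3. For STET_S200 against Control it went from 36 to 37, 32 and 38, and for STET against Control from 31 to 32, 27 and 32.

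**Figure D4:**
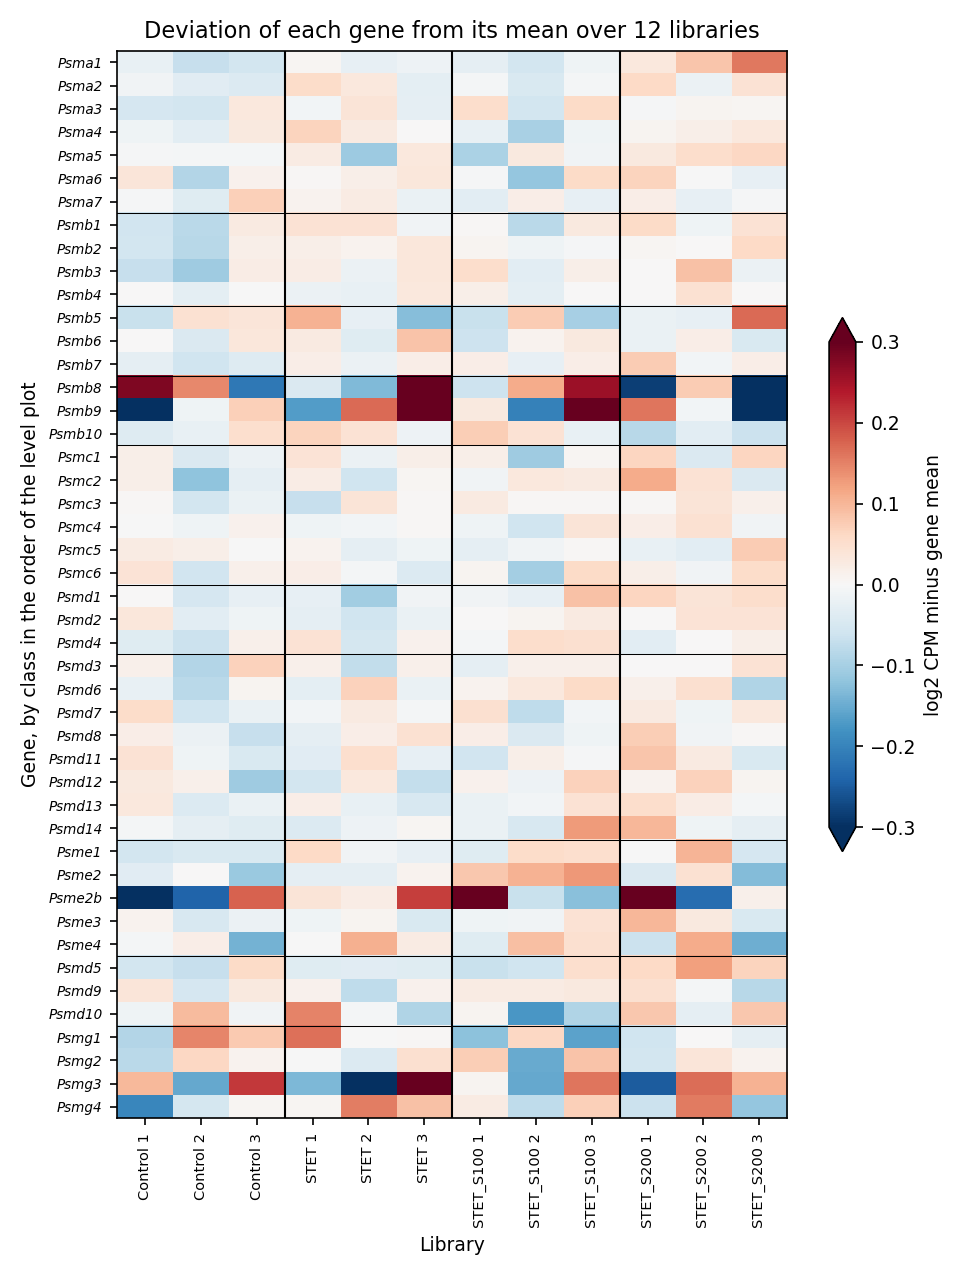
Deviation of each gene (rows) in each library (columns) from its mean over the 12 libraries, in log2 CPM, with colours clipped at 0.3 in either direction. Most core and 19S rows are pale, Psma1 is darkest in STET_S200 3, and Psmb8, Psmb9, Psme2b and Psmg3 vary between libraries of the same group.

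Between the stimulated groups, the alpha subunit Psma1 and the chaperone Psmd5 had unadjusted p-values under 0.05 in both comparisons that involve STET_S200, with Psmd1 as a further gene against STET. In STET_S200 against STET the log2 fold changes were 0.10 ± 0.04 for Psma1, 0.12 ± 0.05 for Psmd5 and 0.10 ± 0.04 for Psmd1, each with an adjusted p of 0.938 in edgeR. In STET_S200 against STET_S100 they were 0.12 ± 0.04 for Psma1 (adjusted p = 0.956) and 0.11 ± 0.05 for Psmd5 (adjusted p = 0.959), and -0.14 ± 0.06 for Psme2 (adjusted p = 0.959, edgeR). The comparisons share the STET_S200 libraries. In STET_S100 against STET the core was lower in 13 of 14 genes with a median of -0.02, and the 19S cap was higher in 10 of 17 with a median of 0.02, while 20 of 46 members (43.5%) and 51.9% of all genes were higher. These counts turned on single libraries. Without STET 1, STET 3 or STET_S100 2, 5 of 14 core genes were higher in place of 1, and without STET_S100 2, 27 of 46 members were higher. The named members there were Psme2 (0.12 ± 0.06), Psma4 (-0.08), Psmg1 (-0.13) and Psmd10 (-0.10), none of which passed. In STET_S200 against STET the core median was 0.01 and the 19S median 0.03, and against STET_S100 they were 0.03 and 0.02. With the choroid score as a covariate, 0 members had an unadjusted p under 0.05 in either of these comparisons, in place of 3 in each. The value of Psmd5 was then 0.04 against STET and 0.03 against STET_S100, and the 19S medians were -0.01 and -0.02. The score was 2.68 to 5.6 in STET, 0.465 to 5.97 in STET_S100 and -0.823 to 0.895 in STET_S200. It thus largely follows STET_S200, so these adjusted values cannot tell the group from choroid plexus content.

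Immunoproteasome subunits were the class with lower values in STET_S200. Their median log2 fold change was -0.31 against STET and -0.32 against STET_S100, with 3 of 3 lower in each, and none passed. Psmb8 stood at 1.89, 1.72 and 1.34 CPM in Control, 1.51, 1.42 and 2.06 in STET, 1.49, 1.68 and 1.86 in STET_S100, and 1.28, 1.64 and 1.07 in STET_S200. All 4 groups overlapped, and the fold change of STET_S200 against STET was -0.31 ± 0.21 with a 95% interval from -0.75 to 0.13. Psmb9 stood at 0.378, 0.464 and 0.492 CPM in Control, 0.417, 0.527 and 0.759 in STET, 0.478, 0.407 and 0.744 in STET_S100, and 0.523, 0.466 and 0.219 in STET_S200, where the last value came from 8 reads. Groups overlapped for Psmb9 as well, with -0.47 ± 0.36 for STET_S200 against STET and -0.42 ± 0.36 against STET_S100.

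Psmb10, the subunit of this class with the most reads, stood at 17.0, 17.2 and 18.1 CPM in Control, 18.3, 18.0 and 17.3 in STET, 18.4, 18.0 and 17.2 in STET_S100, and 16.5, 17.1 and 16.7 in STET_S200. STET_S200 libraries overlapped Control and lay below those of STET and STET_S100 by a narrow gap. Their highest value was 17.1 CPM, against lowest values of 17.3 in STET and 17.2 in STET_S100. The share of all genes separated in these comparisons was not counted. Its log2 fold change was -0.09 ± 0.06 against STET (adjusted p = 0.938, edgeR), -0.09 ± 0.06 against STET_S100 and -0.05 ± 0.06 against Control. Microglia, which are known to express immunoproteasome genes, had all 14 of their markers lower in STET_S200 than in Control (median -0.18), with sums of 304 to 355 CPM against 356 to 378, and 13 of 14 lower than in STET. In STET_S100 all 14 were lower than in Control as well (median -0.10), while the immunoproteasome genes were 3 of 3 higher there (median 0.04). Of 8 endothelial markers 6 were lower in STET_S200 than in Control (median -0.14). Neither list had a gene that passed, and their part in the Psmb8, Psmb9 and Psmb10 values was not tested. With the choroid score as a covariate, the class medians of STET_S200 were -0.52 against STET and -0.53 against STET_S100. That score largely follows STET_S200, so the covariate and the group can hardly be told apart. Leaving out STET_S100 3 changed the class median of STET_S200 against STET_S100 to -0.12.

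Set against the constitutive partner in the same library, the immune subunits kept their order in every group. The log2 ratio of Psmb10 to Psmb7 CPM was -2.49 ± 0.05 (SD, n = 3) in Control and -2.50 ± 0.05 in STET, against -2.50 ± 0.06 in STET_S100 and -2.61 ± 0.07 in STET_S200. Libraries of STET_S200 ran from -2.68 to -2.55, below Control (-2.54 to -2.44) by a narrow gap. They overlapped STET (-2.56 to -2.47) and STET_S100 (-2.56 to -2.45). Both genes enter the gap to Control. In STET_S200 against Control, the log2 fold change was 0.07 ± 0.04 for Psmb7, with every library above Control, and -0.05 ± 0.06 for Psmb10, with overlap. For Psmb8 to Psmb5 the log2 ratio was -4.11 ± 0.30, -4.08 ± 0.38, -4.04 ± 0.19 and -4.46 ± 0.41 in the same order of groups, and for Psmb9 to Psmb6 it was -7.29 ± 0.20, -7 ± 0.40, -7.03 ± 0.43 and -7.50 ± 0.66. All groups overlapped for Psmb8 to Psmb5 and for Psmb9 to Psmb6. For Psmb9 to Psmb6 the difference of STET_S200 from Control was -0.22, and it was 0.16 without STET_S200 3.

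**Figure D5:**
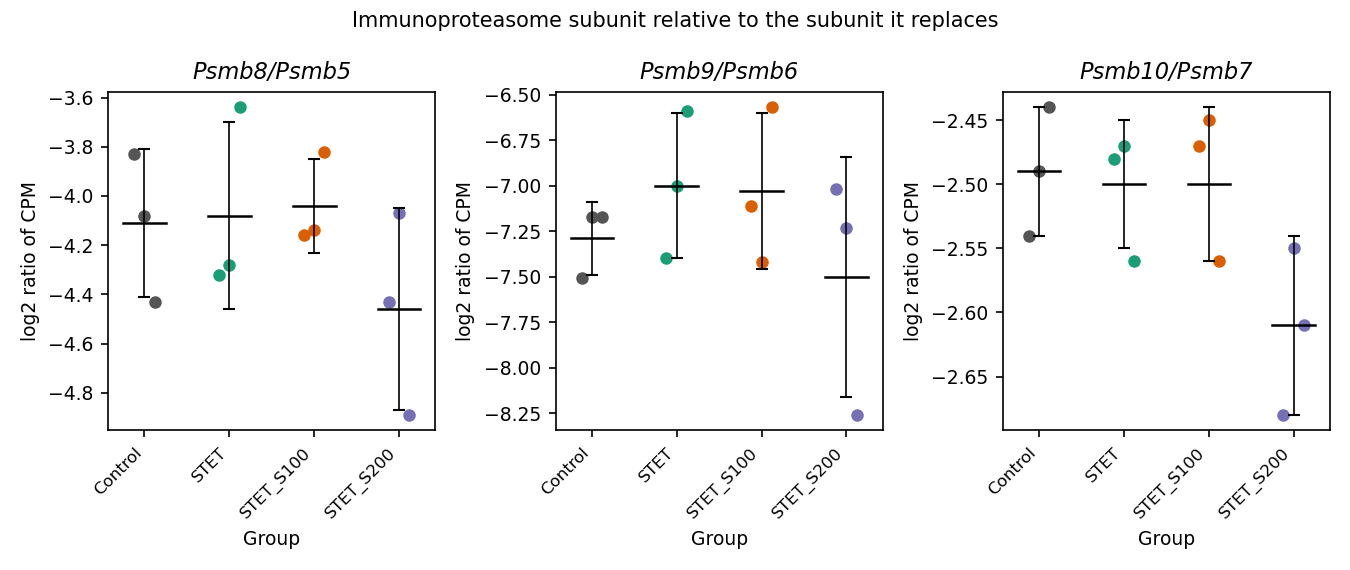
Log2 ratio of CPM of each immunoproteasome subunit to the constitutive subunit it replaces, with 1 point per library and the mean and SD of each group (bars), on a separate scale per panel. STET_S200 has the lowest mean in each panel, -4.46, -7.50 and -2.61, and its libraries overlap STET and STET_S100 in each. They overlap Control for Psmb8/Psmb5 and Psmb9/Psmb6, and lie narrowly below Control for Psmb10/Psmb7.

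Within the PA28 cap, the log2 ratio of Psme2 to Psme1 was -0.90 ± 0.06 in Control and -0.92 ± 0.06 in STET, against -0.82 ± 0.03 in STET_S100 and -0.96 ± 0.02 in STET_S200. The mean ratio was thus highest in STET_S100, the group with the highest Psme2 levels. Its libraries ran from -0.85 to -0.78, and those of Control from -0.96 to -0.85, so the ranges touched at these digits. Psme2 was named for its p in STET_S100 and is part of the ratio, so the ratio is not a separate result. Psme1 stood at 28.9, 29.1 and 29.1 CPM in Control and at 29.3, 31.2 and 31.1 in STET_S100. Psme1 was 31.3, 29.8 and 29.5 CPM in STET and 30.0, 32.2 and 29.0 in STET_S200. Psme3 stood at 98.7, 94.7 and 96.8 CPM in Control, 97.0, 98.5 and 94.9 in STET, 97.0, 97.2 and 101 in STET_S100, and 105, 100 and 94.9 in STET_S200. Its groups overlapped throughout, as did those of Psme4, which stood at 70.1, 71.4 and 63.8 CPM in Control, 70.3, 75.8 and 71.6 in STET, 68.7, 74.9 and 72.8 in STET_S100, and 67.3, 76.0 and 63.6 in STET_S200.

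Of the other constitutive catalytic subunits, Psmb5 stood at 26.8, 29.0 and 28.8 CPM in Control, 30.2, 27.6 and 25.7 in STET, 26.8, 29.6 and 26.2 in STET_S100, and 27.7, 27.6 and 31.6 in STET_S200. Psmb6 stood at 69.1, 67.0 and 70.7 CPM in Control, 70.4, 67.4 and 73.3 in STET, 66.1, 69.6 and 70.5 in STET_S100, and 68.1, 70.0 and 66.9 in STET_S200. All groups overlapped for both genes. Among the 20S chaperones, Psmg1 ran from 6.28 to 7.86 CPM, Psmg2 from 10.1 to 11.9, Psmg3 from 1.28 to 2.17 and Psmg4 from 4.35 to 5.55 over the 12 libraries. The 19S chaperones Psmd9 and Psmd10 ran from 22.3 to 24.4 and from 8.71 to 10.9 CPM.

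Genes that work with the proteasome were counted from a list of 26, of which 25 were found and tested. The list holds ubiquitin genes, shuttle and deubiquitinating proteins, assembly factors and the regulators Nfe2l1 and Nfe2l2, and none passed in any comparison. Against Control, 16 were higher and 9 lower in STET (median 0.02), 13 and 12 in STET_S100 (0.00), and 21 and 4 in STET_S200 (0.04). Nfe2l1, the transcription factor known to raise proteasome genes when the proteasome is impaired, stood between 289 and 313 CPM, with 0.03 ± 0.04 in STET_S200 against Control. Ddi2, the protease that activates its product, had the smallest p of these genes in that comparison, with 0.14 ± 0.05 (adjusted p = 0.786, edgeR). Uchl5, a deubiquitinase of the 19S cap, had 0.11 ± 0.06, which did not pass.

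Antigen presentation and interferon genes, which share regulators with the immunoproteasome, also held none that passed among 21 tested. Against Control, 12 were higher and 9 lower in STET (median 0.02), 17 and 4 in STET_S100 (0.10), and 12 and 9 in STET_S200 (0.03). In STET_S200 against STET, 8 were higher and 13 lower (-0.03), and against STET_S100 5 were higher and 16 lower (-0.06). Lower values in these 2 comparisons were thus not limited to the immunoproteasome genes. Irf1, an interferon regulatory factor, was 15.1 to 22.5 CPM in Control and 21 to 31 in STET_S200, a log2 fold change of 0.48 ± 0.22 that did not pass. Irf7 was 1.12 to 1.39 CPM in Control and 0.765 to 1.07 in STET_S200, with -0.48 ± 0.24, which also did not pass. Both lists' direction counts are descriptions of these libraries.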

How the data were processed

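The authors deposited unscaled whole-number counts of reads for each Ensembl gene. HTSeq 0.11.2, STAR 2.7.1a, limma, R 4.0.2 and Trimmomatic 0.39 appear in the submitters' processing notes, without a role. Genome build, annotation and strand setting: not given in the sources used here. Gene lengths and overlaps come from GENCODE M21, and promoter letters from RefSeq.

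Counts of all 12 libraries (36.3 to 52.8 M each) were scaled by TMM and fitted with the quasi-likelihood test of edgeR 4.0.16 in R 4.3.3, with 1 coefficient per group, for genes kept by filterByExpr (minimum count 10, minimum total 15). This left 19492 genes, with a biological coefficient of variation of 8.25%. Benjamini-Hochberg adjustment ran over all genes kept, separately for each comparison, at a threshold of 0.05. CPM values use the scaled library totals. SE is the standard error of the fit. Scripts were tested on simulated data. Alternatives were other scalings, filters, DESeq2 1.42.0, limma-voom (limma 3.58.1), dispersion, fits of the compared groups alone, a replicate block, covariates for choroid plexus and Fabp4, and leaving out each library. A length over all exons was added after the data were seen.

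The members and lists were chosen with earlier results of these data known. Named genes are the catalytic, immune and PA28 or PA200 genes, and in each comparison up to 5 higher and 5 lower members with the smallest p. In each class, the genes with the highest and lowest level per length are named as well, and up to 4 genes of each partner list. Psmb4, Psmd1 and Psmd5 were singled out further after their values were seen.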

Additional observations from a re-analysis of the deposited data

How the results depend on the processing

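The number of proteasome genes called was 0 under each of 24 alternatives (23 for the mean of stimulated groups), and the smallest adjusted p of a member over them was 0.326, for STET_S200 against STET_S100. Few genes of any kind were called. Over all genes, 16 to 98 were called with no filter beyond 1 read, and 0 to 16 under the other settings. Of 1002 class medians recomputed, 988 moved by less than the spread between replicates. With the choroid score as a covariate, STET_S200 against Control gave 0.02 for the core (0.04 without), 0.01 for the 19S cap (0.03) and -0.49 for the immunoproteasome (-0.11). STET_S200 against STET gave -0.01 for the 19S cap, -0.52 for the immunoproteasome and -0.02 over all members. STET_S200 against STET_S100 gave 0.01 for the core, -0.02 for the 19S cap, -0.53 for the immunoproteasome, -0.05 for the chaperones and -0.02 over all members. The choroid score largely follows STET_S200, so these adjusted values cannot tell the group from choroid plexus content. In the libraries with Fabp4 at or below 1 CPM, the immunoproteasome median of STET_S100 against STET was 0.27 (0.00 in all libraries). In the same libraries Psmb9 in STET_S200 against STET was 0.15 (-0.47), the only one of 2863 gene values that changed sign from beyond its SE. Of STET_S200 this setting keeps only STET_S200 1, beside STET 1 and STET 2. It leaves out STET_S200 3 with its 8 reads of Psmb9. The causes were not tested. Leaving out each library in turn, the medians of STET_S200 against STET_S100 ran from -0.51 to -0.12 for the immunoproteasome and from -0.04 to 0.06 for the chaperones. The replicate block also gave 0 members called in each comparison, with a smallest adjusted p of 0.64. The labels do not say whether equal replicate numbers mark the same mice, so the samples were not treated as paired. Of 18 same-number pairs, 7 had deviations correlated above 0.1 (-0.285 to 0.33, against -0.348 to 0.362 for other pairs). Few reads stand behind Psmb9 (8 to 36 per library).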

Other observations

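The coding genes kept out by the count minimum were near the limit of detection. Psma8, a testis alpha subunit, had 3 to 14 reads per library (88 in all), and Psmb11, the thymus catalytic subunit, had 0 to 6 (33 in all). The pseudogenes Psmb5-ps and Psmb6-ps2 had 1 and 2 reads in all, and Psmb6-ps and Psmb7-ps2 had 0. Psmc3ip, kept by the rule but outside the classes, had 55 to 100 reads per library.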
